A study of Rattus norvegicus with 6 samples.

Results

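The globins and erythroid genes described here are 8 rat genes: the blood globins Hba-a1, Hba-a3, Hbb and Hbb-bs, the chaperone gene Ahsp, the heme enzyme gene Alas2, and the brain globins Ngb and Cygb. They were measured in brain RNA of 6 male rats of Wistar background aged 15 weeks. Of these, 3 were of the SPORTS genotype, a hyperactive mutant line, and 3 were wildtype, and all were sedentary. Each rat had 1 single-colour Agilent array. The labels name neither the mutated gene nor the brain region, and the sources used here do not say whether blood was flushed from the tissue. The genes were selected on the names of their probes after values of the same SPORTS against wild type contrast had been seen for Hba-a1, Hba-a3, Hbb and Hbb-bs. The differences of all 8 genes between the lines are therefore a description: calls are printed once, as a count beside that of all probes, and support nothing. The 8 genes had 11 probes, of 30367 distinct probes on the array, and every one of the 11 is reported.

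Hemoglobin of red blood cells is built from alpha chains, encoded by the Hba genes, and beta chains, encoded by the Hbb genes, each holding a heme group that binds oxygen. Rats carry several adult copies of each, arranged in an alpha and a beta cluster. Mature red cells have no nucleus, but young ones still hold globin and Alas2 transcripts, so RNA of unperfused brain usually carries them. Ahsp encodes the protein that stabilises free alpha chains, and Alas2 the enzyme of the first step of heme synthesis in red cell precursors. Neuroglobin, encoded by Ngb, is an oxygen-binding globin of neurons, and cytoglobin, encoded by Cygb, is found in fibroblast-like cells and some neurons.

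In the RefSeq gene order of build GRCr8, Hba-a3, Hba-a2, Hbq1b, Hba-a1 and Hbz follow each other on chromosome 10. On chromosome 1, Hbb-bs, Hbb-b1, Hbbl1, Hbb-b2 and Hbb follow each other, ahead of the embryonic genes Hbg1, Hbe2 and Hbe1. The array was designed on another build, rn4, so no probe positions are given. The RefSeq promoter table held 6 of the 8 genes, all but Ahsp and Cygb. The 250 bases before the start of the 4 blood globin genes are shown because the members of each pair, Hba-a1 with Hba-a3 and Hbb with Hbb-bs, differed in how they stood between the lines. They are written 5′ to 3′ on the strand of the gene, in build GRCr8. Capitals mark the motifs AGATAA or TGATAA (read by GATA factors), CACCC and CCAAT on either strand, and the TATA-like ATAAA on the strand of the gene. The first and the last of these can overlap in their letters.

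Hba-a1 (chr10:15842581-15842830, minus strand): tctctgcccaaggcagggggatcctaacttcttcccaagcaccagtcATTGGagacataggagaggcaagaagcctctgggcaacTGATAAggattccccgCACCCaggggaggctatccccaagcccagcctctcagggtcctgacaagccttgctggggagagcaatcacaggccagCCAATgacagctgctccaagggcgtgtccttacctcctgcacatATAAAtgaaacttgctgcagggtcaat
Hba-a3 (chr10:15816944-15817193, minus strand): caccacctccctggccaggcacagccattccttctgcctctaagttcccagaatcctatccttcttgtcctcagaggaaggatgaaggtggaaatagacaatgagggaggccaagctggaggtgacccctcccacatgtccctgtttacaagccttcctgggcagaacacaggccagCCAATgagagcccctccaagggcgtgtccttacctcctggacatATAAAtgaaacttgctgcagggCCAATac
Hbb (chr1:167663722-167663971, minus strand): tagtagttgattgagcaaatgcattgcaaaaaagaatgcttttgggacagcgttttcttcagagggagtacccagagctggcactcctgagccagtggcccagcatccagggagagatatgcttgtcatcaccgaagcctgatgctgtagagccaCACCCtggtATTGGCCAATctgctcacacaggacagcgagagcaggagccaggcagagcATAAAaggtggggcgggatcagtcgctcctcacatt
Hbb-bs (chr1:167631631-167631880, minus strand): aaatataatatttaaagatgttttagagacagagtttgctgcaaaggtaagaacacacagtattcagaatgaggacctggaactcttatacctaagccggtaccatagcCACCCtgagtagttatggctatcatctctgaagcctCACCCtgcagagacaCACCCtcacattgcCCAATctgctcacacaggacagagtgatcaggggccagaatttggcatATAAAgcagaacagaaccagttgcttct

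All 4 sequences held ATAAA, between 36 and 27 bases before the start, and CCAAT on the strand of the gene between 81 and 71 bases before it. In Hbb, CCAAT also stood on the other strand directly ahead of that match. Hba-a1 also held CCAAT on the other strand, 203 bases before the start, and Hba-a3 held it again on its own strand, 7 bases before the start. CACCC occurred once in Hba-a1 and Hbb and 3 times in Hbb-bs, and was not found in the Hba-a3 window. TGATAA stood in Hba-a1 only, 165 bases before the start. Of 33469 windows of the same length before rat genes, 25.2% held ATAAA, 34.0% CCAAT, 49.2% CACCC and 16.9% a GATA motif. Aligned over their whole length, the Hba-a1 and Hba-a3 windows were identical in 66.4% of 280 columns, and those of Hbb and Hbb-bs in 61.5% of 278. Of the other genes, Alas2 held AGATAA 136 bases before its start, and Ngb held TGATAA on the other strand. These matches describe letters in a window and say nothing of a bound factor.

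Signals are given on a normalised log2 scale whose 0 is the 75th percentile of the non-control spots of the same array. Every difference is the SPORTS mean less the wild type mean. An array had 20323 to 23261 probes well above background and 0 saturated ones, and precision is limited by the number of arrays. All 6 arrays lay on 1 slide, wild type replicates 1 and 2 in slide row 1 and the other 4 in row 2. Values within row 2 therefore rest on 1 wild type array. Of 10 markers each of neurons, astrocytes and oligodendrocytes, 9, 10 and 10 were tested, so the tissue carried the markers of brain. One array stood apart: the summed signal of 11 choroid plexus markers, each as a multiple of the 75th percentile, was 68.5 in SPORTS replicate 1, while the remaining 5 arrays ran from 129 to 146. For the 7 of the 8 genes above background on all 6 arrays, the difference is therefore given with and without it. In such bulk tissue, fewer cells of a type and less RNA per cell cannot be told apart, and nothing states how the rats were housed or sampled together, so the spread is that between these 6 samples.

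The transcripts of the main blood globins, Hba-a1 and Hbb, gave overlapping signals in the 2 lines, with a wide spread between rats, whereas the probes of Hba-a3 and Hbb-bs gave higher signals in every SPORTS rat. Ahsp and Ngb were higher by smaller amounts, and Alas2 and Cygb had overlapping groups. In limma's moderated test, with Benjamini-Hochberg adjustment over all 20658 tested probes, 5 of the 11 probes were called higher and 0 lower. Over all tested probes 11.1% were called higher and 10.1% lower, and 52.3% of the calls were higher, against 41.6% with a shift by the array median. In the same 5 probes, every SPORTS array lay above every wild type array, and in none did every SPORTS array lie below. Among all tested probes, 21.4% had every SPORTS array above and 20.5% had every SPORTS array below. Since this contrast was known when the genes were chosen, nothing is read from these counts. All 11 probes passed the filter on dim probes, the Hba-a3 probe only through the SPORTS arrays.

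Hba-a1, which encodes an adult alpha chain, had 2 probes. The brighter, A_64_P032499, was at 6.21, 5.94 and 6.06 in wild type replicates 1 to 3 and at 6.44, 6.25 and 5.60 in SPORTS replicates 1 to 3. SPORTS held both the highest and the lowest array, and all 3 wild type arrays lay between them. The difference was 0.03 ± 0.22 (SE of the fit), with a wild type mean of 6.07 ± 0.13 (SD, n = 3) and a SPORTS mean of 6.10 ± 0.44 (n = 3). The other probe, A_64_P032502, read 2.32, 1.96 and 2.09 in wild type and 2.48, 2.21 and 1.52 in SPORTS. Its difference was -0.05 ± 0.25. The order of highest and lowest array was that of the first probe.

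Hbb, which encodes an adult beta chain, gave the same picture with its 2 probes. On A_64_P028036 the wild type arrays were at 5.52, 5.12 and 5.23 and the SPORTS arrays at 5.67, 5.51 and 4.94. The groups overlapped, with a difference of 0.08 ± 0.21 (SE). On A_44_P306307 the values were 1.41, 0.96 and 1.05 in wild type and 1.55, 1.37 and 0.60 in SPORTS, a difference of 0.04 ± 0.27. In all 4 probes of Hba-a1 and Hbb, SPORTS replicate 1 was the highest and SPORTS replicate 3 the lowest of the 6 arrays. Leaving out SPORTS replicate 1 gave differences from -0.26 to -0.07 over these 4 probes, and leaving out SPORTS replicate 3 gave 0.23 to 0.32.

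Hba-a3, another alpha chain gene of the same cluster, was measured with 1 probe in 1 spot. Its processed signal was 3.84, 9.44 and 7.51 scanner units in wild type, well above background on no array. In SPORTS it was 380, 362 and 201, well above background on all 3. On the normalised scale these were -8.68, -7.43 and -7.72 against -2.06, -2.12 and -2.93, and the groups did not overlap. The SPORTS signal was at least 16.4-fold higher, taking for wild type the dimmest signal still well above background on each array. This bound holds on the scale of the processed signal. With normexp background correction and an offset of 50, the log2 difference was 2.38, under the log2 bound of 4.04. Both the fitted differences and their errors rest on wild type signals below background, so no other size is given.

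Hbb-bs, a beta chain gene of the same cluster as Hbb, was well above background on all 6 arrays. Its signals were 1.26, 0.73 and 0.78 in wild type and 3.38, 3.26 and 2.55 in SPORTS. The lowest SPORTS array lay 1.28 above the highest wild type array. The means were 0.92 ± 0.30 (SD, n = 3) and 3.06 ± 0.45 (n = 3), a difference of 2.14 ± 0.26 (SE of the fit), or 4.40-fold. The difference was 1.98 without SPORTS replicate 1 and 2.28 within slide row 2, and those without any 1 array ran up to 2.39.

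**Figure D1:**
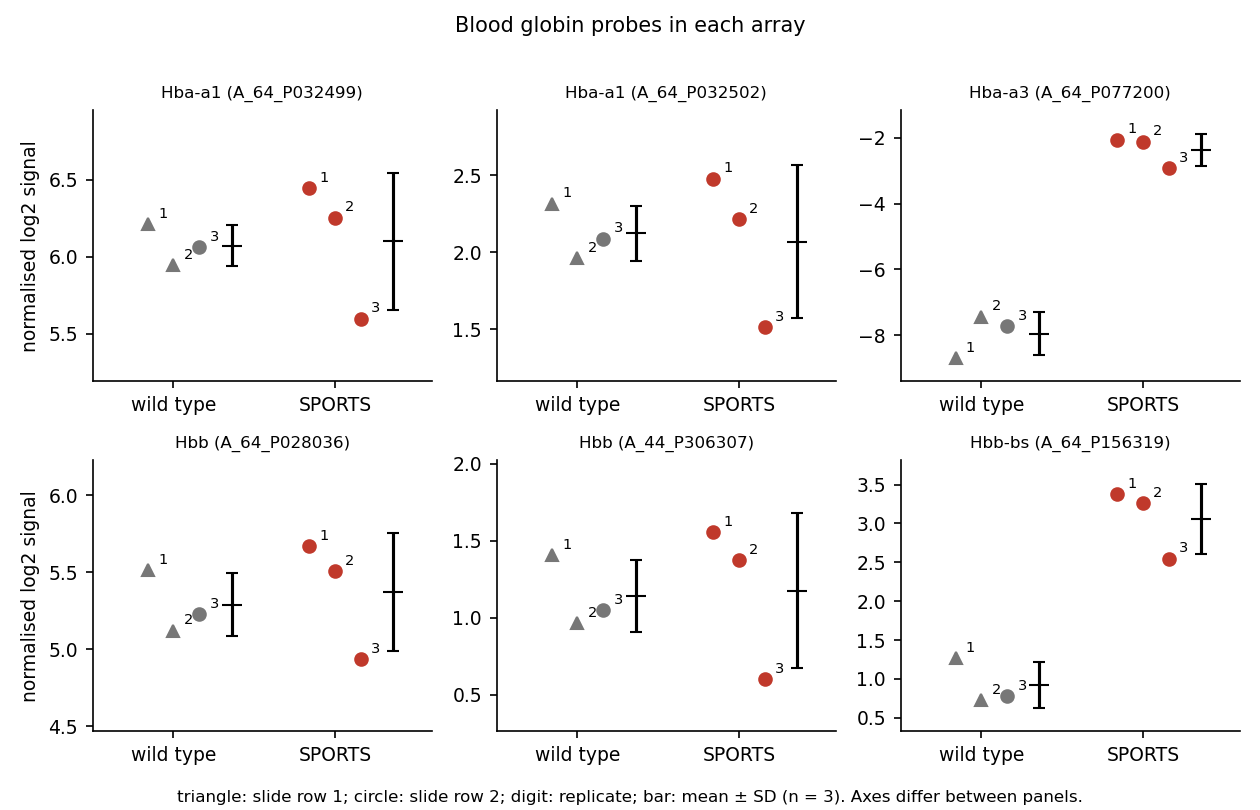
Normalised log2 signal of the 6 blood globin probes, one panel per probe with its own axis, for wild type (grey) and SPORTS (red); triangles mark slide row 1, circles row 2, digits the replicate, and bars the mean ± SD of 3 arrays. The groups overlap for both probes of Hba-a1 and of Hbb, and lie apart for Hba-a3, whose wild type arrays are below background, and Hbb-bs (gap 1.28).

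The blood globins varied more between rats of 1 line than most probes did, and they varied together. The SD within groups was between 0.31 and 0.40 for Hba-a1, Hbb and Hbb-bs and 0.42 for Alas2, against a median of 0.07 over all tested probes. Between 94.0% and 96.9% of the tested probes had a smaller SD than these probes. Spots of 1 probe on 1 array had a median SD of at most 0.03 for the blood globin probes with 2 spots. The array of SPORTS replicate 3 lay 0.43 to 0.58 under its group mean on the 6 blood globin probes. SPORTS replicate 1 lay 0.30 to 0.41 above it, and SPORTS replicate 2 lay 0.14 to 0.25 above it. Of the wild type arrays, replicate 1 lay 0.14 to 0.34 above its group mean on the probes of Hba-a1, Hbb and Hbb-bs, and replicate 2 lay under it on each. The wild type arrays of Hba-a3 were below background and have no order.

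**Figure D2:**
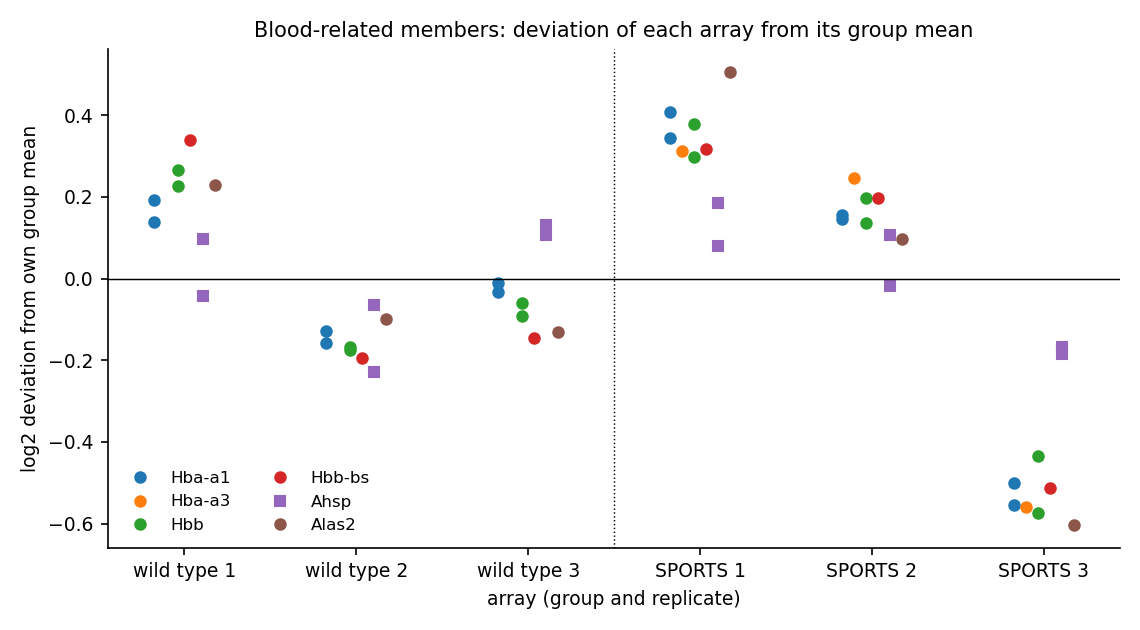
Deviation of each array from the mean of its own group (log2) for the probes of Hba-a1, Hba-a3 (SPORTS arrays only), Hbb, Hbb-bs and Alas2 (circles) and Ahsp (squares), with the 6 arrays along the horizontal axis. The circles move together: SPORTS replicate 3 lies lowest, at -0.60 to -0.43, and SPORTS replicate 1 highest of its line, while the Ahsp squares stay between -0.23 and 0.19.

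Set against the brightest Hbb probe on the same array, the signal of Hbb-bs was offset by nearly the same amount in every SPORTS rat. With the wild type mean of each probe at 0, Hbb-bs less Hbb was 0.11, -0.03 and -0.09 in wild type and 2.07, 2.11 and 1.97 in SPORTS. The SD of this offset was 0.07 in SPORTS, where Hbb-bs alone had 0.45. Hba-a3 less Hba-a1 had an SD of 0.08 over the SPORTS arrays, against 0.49 for Hba-a3 alone. The size of that offset is not given, since it is counted from wild type signals below background. As a comparison, Hbb less Hba-a1 lay between -0.05 and 0.12 on all 6 arrays. An offset within an array shows that 2 probes changed unequally, not which of them kept its level. These adult globin copies resemble each other, probe sequences were not used here, and whether a probe also captured RNA of another copy or allele was not tested.

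Other globins on the array bore on the same point. Of 11 genes listed, 6 had a probe and 4 were tested, and limma called 0 of them in either direction (0 with an unadjusted p under 0.05). Over all 11033 tested genes, each at its brightest probe, 12.9% were called higher and 11.4% lower. Hbb-b1, which lies next to Hbb-bs, had 2 probes with differences of 0.18 ± 0.23 (SE, adjusted p = 0.64) and 0.38 ± 0.23 (adjusted p = 0.299). Relative to Hbb on the same array, the second of these was offset by 0.32, 0.31 and 0.24 in SPORTS, against an SD of 0.03 in wild type. The first was offset by 0.13, 0.11 and 0.03. Mb, the myoglobin gene of muscle, differed by -0.09 ± 0.06 (adjusted p = 0.35). The probe of the embryonic gene Hbe2 was lowest in SPORTS replicate 3, at 2.73, and highest in SPORTS replicate 1, as for the adult genes, and differed by 0.04 ± 0.24 (adjusted p = 0.927). The embryonic gene Hbe1 was not well above background on any array, and Hbg1 was so on 2 arrays of each line. The Hbe2 probe had means of 3.20 in wild type and 3.24 in SPORTS. Whether it captured RNA of an adult copy was not tested, so its signal is not read as that of an embryonic transcript.

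Among the genes with the pattern most like the blood globins were Hbe2, Hbb-b1, Prp15 and Rflna. Likeness was the root mean square distance over the 6 arrays between the centred values of a probe and those of the mean of the brightest Hba-a1 and Hbb probes. It was 0.05 for Hbe2, 0.06 for Hbb-b1, 0.09 for Prp15 and 0.15 for Rflna. Prp15 was dim, between -6.10 and -5.27. Nearest neighbours among many probes follow from the choice itself, and 6 arrays are few.

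Alas2 varied from rat to rat as the blood globins did, with overlapping lines. Its signals were -1.53, -1.86 and -1.89 in wild type and -1.16, -1.56 and -2.27 in SPORTS. SPORTS again held the highest and the lowest array, and the difference was 0.09 ± 0.29 (SE). Less Hba-a1 on the same array, Alas2 lay between -0.12 and 0.23 on all 6 arrays. Its difference was -0.16 without SPORTS replicate 1 and 0.40 without SPORTS replicate 3.

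Ahsp was higher in SPORTS on both of its probes. On A_43_P16887 the signals were -2.83, -3.16 and -2.80 in wild type and -2.30, -2.27 and -2.57 in SPORTS, a difference of 0.55 ± 0.13 (SE). On A_64_P150726 they were -3.68, -3.70 and -3.53 against -3.06, -3.27 and -3.42, a difference of 0.38 ± 0.10. The groups did not overlap on either probe, and the nearest arrays of the 2 groups were 0.23 and 0.11 apart. Spots of 1 probe on 1 array had a median SD of 0.1 and 0.055 for these probes, so the gaps are not large beside the spread between spots. In SPORTS replicate 3, where the blood globins were lowest, Ahsp lay only 0.19 and 0.17 under its group mean. Within slide row 2 the differences were 0.42 and 0.28. The differences without SPORTS replicate 1 were 0.51 and 0.29.

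Ngb was higher in SPORTS by 0.53 ± 0.13 (SE), or 1.44-fold. Its signals were -1.32, -0.87 and -0.85 in wild type and -0.45, -0.54 and -0.48 in SPORTS, so the groups did not overlap and lay 0.31 apart. Wild type replicate 1 was the lowest array. The SD was 0.26 in wild type and 0.05 in SPORTS. The difference was 0.36 within slide row 2 and 0.50 without SPORTS replicate 1. Neuroglobin is known to be abundant in the hypothalamus, so hypothalamic markers are set beside it. The summed level of 12 tested markers was 4.50, 12.0 and 15.3 in wild type replicates 1 to 3, and 1.87, 3.32 and 7.40 in the SPORTS replicates. Pmch and Avp had the highest wild type means of the 12, at 2.09 and 1.39, so the wild type sums mostly follow them. Pmch ran from -3.94 to 2.37 over the SPORTS arrays and was not called (adjusted p = 0.384). Of the 12 markers 0 were called higher and 4 lower, with a median difference of -0.47. Over all tested genes 12.9% were called higher and 11.4% lower. Avp, among the 4, differed by -4.165 ± 0.362 (SE, adjusted p = 0.00151) and was well above background on all 3 arrays of each line. Its difference ran from -4.866 to -3.782 over the settings. Six3, also among the 4, was well above background on 1 SPORTS array. It passed the filter only through the wild type arrays, so its size rests in part on signals at background. With a block for the slide row 1 of the 12, Avp, was called lower and the median was -0.95. The part of these markers in the Ngb values was not tested.

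Cygb showed overlapping groups, at 1.86, 2.15 and 2.07 in wild type and 2.21, 2.11 and 2.11 in SPORTS. The difference was 0.12 ± 0.08 (SE), or 0.09 without SPORTS replicate 1, and it lay between 0.03 and 0.18 over all settings tried. Cytoglobin is a protein of fibroblast-like cells. Of 14 fibroblast and meninges markers 11 were called higher and 1 lower, with a median difference of 0.63. Over all tested genes 12.9% were called higher and 11.4% lower. With the slide row as a block 8 of the 14 were called higher and 1 lower. Lum, among those called higher, passed the filter only through the SPORTS arrays. Of 10 tested interneuron genes, listed for the Nos1 and Sst neurons that include carriers of cytoglobin, 0 were called higher and 3 lower. Their median difference was -0.07. The list also held Gad1, Gad2, Pvalb, Vip and Reln, which are not particular to those neurons. Sst fell by 1.13 ± 0.06 (SE, adjusted p = 0.000299) and Npy by 0.80 ± 0.07 (adjusted p = 0.00133). Nos1, named after its values were seen, differed in the other direction, by 0.37 ± 0.11 (adjusted p = 0.0701). Its difference ran from 0.225 to 0.448 over the settings, and it was called higher under 2 alternatives. The part of either list in the Cygb values was not tested.

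**Figure D3:**
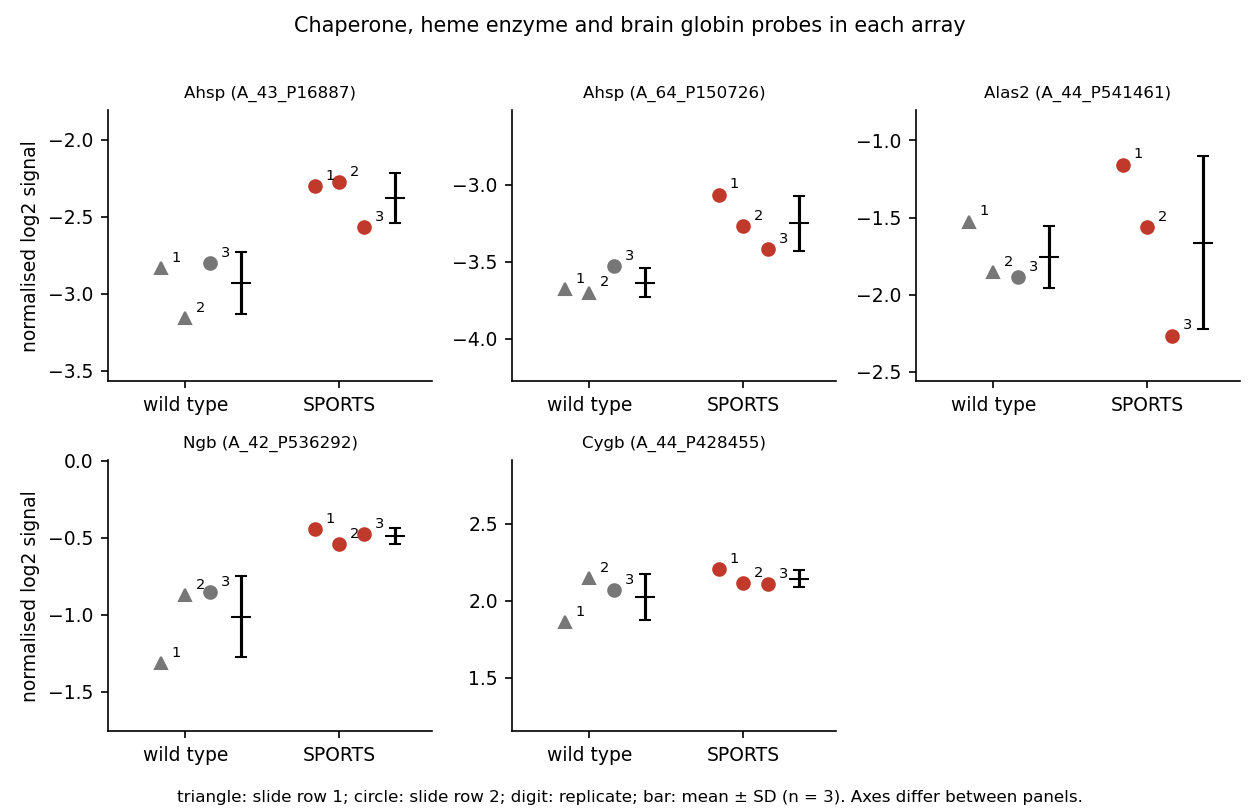
Normalised log2 signal of the probes of Ahsp, Alas2, Ngb and Cygb, one panel per probe with its own axis and the same symbols for group, slide row and replicate, with the mean ± SD of 3 arrays. Both Ahsp probes and Ngb lie apart between the lines by 0.11 to 0.31, while Alas2 and Cygb overlap.

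Other red cell genes had smaller differences than Hba-a3 and Hbb-bs. Of 33 further erythroid genes, 24 had a probe and 13 were tested, of which limma called 0 higher and 3 lower, with a median difference of -0.12. Over all tested genes the median was 0.01, with 12.9% called higher and 11.4% lower. Mkrn1, a ubiquitin ligase gene, fell by 0.29 ± 0.04 (SE, adjusted p = 0.00522). Gypc, which encodes glycophorin C of the red cell membrane, fell by 0.31 ± 0.05 (adjusted p = 0.0112). Tmod1, which encodes an actin-capping protein of the membrane skeleton, fell by 0.23 ± 0.04 (adjusted p = 0.0132). All 3 calls ended with the row as a block, and their adjusted p ran up to 0.0821, 0.104 and 0.129 over the settings. Gypc also lost it without SPORTS replicate 2 (adjusted p = 0.0547) and Tmod1 without SPORTS replicate 3 (adjusted p = 0.0514). The lowest adjusted p over the settings was 0.00113 for Mkrn1, 0.00954 for Gypc and 0.00839 for Tmod1. The spectrin gene Sptb, named after its values were seen, differed by -0.56 ± 0.17 (adjusted p = 0.0679; from 0.0252 to 0.177 over the settings) and was called lower under 5 of the alternatives, the block among them. The blood group gene Rhd, likewise named after its values were seen, differed by 0.34 ± 0.10 (adjusted p = 0.0578; from 0.019 to 0.339 over the settings). It was called higher under 3 alternatives: quantile normalisation, the median shift and the deposited table. With the mean of a gene's probes, 2 genes of the list were called higher. Genes of red cell precursors stood at different levels: Epb42, Rhag, Hemgn, Nfe2, Kel and Gfi1b were well above background on no array, and Gata1 on 1 array of each line, whereas Tal1, Epor, Rhd, Trim58, Sptb and Klf1 were so on all 6. Klf1, an erythroid transcription factor gene, differed by -0.03 ± 0.24 (adjusted p = 0.942). Epor, named after its values were seen, differed by -0.84 ± 0.33 (adjusted p = 0.128). It was at -3.95, -4.06 and -4.10 in wild type and at -4.10, -5.25 and -5.29 in SPORTS. Its difference ran from -1.23 to -0.46 over the settings, and it was called lower under 1 alternative.

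Of 15 heme synthesis genes, all tested, 1 was called higher and 1 lower, with a median difference of -0.01. Over all tested genes 12.9% were called higher and 11.4% lower. Abcb10, a mitochondrial transporter gene needed for heme synthesis in red cell precursors, had a mean of 0.37 ± 0.02 (SD, n = 3) for wild type against -0.40 ± 0.03 (n = 3) for SPORTS. It fell by 0.77 ± 0.03 (SE, adjusted p = 0.000179) and was called under every setting. Fech, which encodes the enzyme that inserts iron into the heme ring, rose by 0.27 ± 0.03 (adjusted p = 0.00482) and lost its call in row 2 alone (adjusted p = 0.0632; from 0.00237 to 0.0632 over the settings). Alas1, the housekeeping counterpart of Alas2, differed by -0.02 ± 0.03 (adjusted p = 0.729).

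Genes that handle free hemoglobin, heme and iron moved in both directions, with 5 of 21 tested called higher and 2 lower (median 0.06). Over all tested genes 12.9% were called higher and 11.4% lower. With the row as a block 2 of the 21 were called higher and 1 lower. Hp, which encodes haptoglobin, the plasma protein that binds free hemoglobin, rose by 0.98 ± 0.09 (SE, adjusted p = 0.00197) and was called under every setting. Hebp2, a heme-binding protein gene, rose by 0.77 ± 0.14 (adjusted p = 0.0138; from 0.00414 to 0.123 over the settings) and lost its call with the row as a block. Heph, which encodes the iron oxidase hephaestin, rose by 0.71 ± 0.07 (adjusted p = 0.00239; from 0.000138 to 0.0714 over the settings). Its call ended in row 2 alone. Cp, the gene of the related oxidase ceruloplasmin, rose by 0.26 ± 0.05 (adjusted p = 0.017; from 0.00629 to 0.15 over the settings). The difference was 0.27 with the block, where its call ended, as it also did with no filter on dim probes and without wild type replicate 1 or 3. The heme oxygenase gene Hmox1, chosen after its values were seen, differed by 0.13 ± 0.06 (adjusted p = 0.22).

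Of 17 tested genes of oxygen sensing and its targets, 2 were called higher and 2 lower, and the median was 0.00. These counts are near the shares over all tested genes, 12.9% higher and 11.4% lower. Adm, which encodes the vessel-dilating peptide adrenomedullin, rose by 0.62 ± 0.08 (SE, adjusted p = 0.00591) and was called under every setting. Ndrg1, a hypoxia-induced gene, rose by 0.23 ± 0.05 (adjusted p = 0.0257). The lactate dehydrogenase gene Ldha fell by 0.28 ± 0.05 (adjusted p = 0.0134) and Ankrd37, also hypoxia-induced, by 0.22 ± 0.05 (adjusted p = 0.0354). These 3 lost their calls with the row as a block, Ldha also without wild type replicate 3 or SPORTS replicate 2. Ndrg1 lost it without any 1 array but wild type replicate 2, and Ankrd37 without any 1 array but wild type replicate 1. Over the settings their adjusted p ran up to 0.163 for Ndrg1, 0.0855 for Ldha and 0.145 for Ankrd37.

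Markers of other blood and vessel cells were set beside the globins. Their counts stand against 12.9% called higher and 11.4% lower over all tested genes. Of 15 neutrophil markers 4 were tested and 2 called higher, Lcn2 by 1.58 ± 0.31 (SE, adjusted p = 0.0183) and Camp by 0.95 ± 0.09 (adjusted p = 0.00194). Lcn2, also made by brain cells, was well above background on 1 wild type array and passed the filter only through the SPORTS arrays, so its size rests in part on signals at background. Its call ended without any 1 SPORTS array, with no filter on dim probes and with the block (adjusted p from 0.00105 to 0.158 over the settings). The summed level of the 4 ran from 0.110 to 0.140 over the wild type arrays and from 0.199 to 0.273 over the SPORTS arrays. Like Lcn2, S100a8 passed the filter only through the SPORTS arrays, so the choice of genes tilts this sum towards SPORTS. The granule genes Elane, Mmp8 and Ltf, named after their values were seen, were well above background on no array. Of 5 tested platelet markers 0 were called higher and 2 lower, Gp1bb by 0.51 ± 0.07 (SE, adjusted p = 0.00506; 0.06 with the block) and Gp5 by 0.18 ± 0.04 (adjusted p = 0.0314; from 0.029 to 0.248 over the settings). The call of Gp5 ended without any 1 array except wild type replicate 3, and with the block 0 of the list were called. Pf4, which encodes platelet factor 4 and was named after its values were seen, went the other way. It was at -3.84, -3.59 and -3.86 in wild type and at -1.58, -2.89 and -2.92 in SPORTS, a difference of 1.30 ± 0.37 (adjusted p = 0.0599; from 0.0105 to 0.284 over the settings). Without SPORTS replicate 1 the difference was 0.86 and Pf4 was called higher. The summed level of the 5 platelet markers ran from 6.67 to 7.34 for wild type and from 4.67 to 5.24 for SPORTS. The wild type mean was 2.74 for Gp1bb, against -3.41 for Gp5 and -3.76 for Pf4, so this sum follows Gp1bb. Whether the Gp1bb signal came from platelets was not tested. Of 4 tested lymphocyte markers, 1 was called higher and 0 lower (summed level 0.233 to 0.256 and 0.244 to 0.261). The call was that of Ptprc, by 0.31 ± 0.07 (SE, adjusted p = 0.0223), while Cd3d, Lck and Nkg7 were not called. Among other settings, Ptprc lost its call with quantile normalisation (adjusted p = 0.0652) and with the median shift (adjusted p = 0.0649). Of 14 endothelial markers, 3 were called higher and 0 lower (5.57 to 6.30 and 6.44 to 6.73), against 0 higher and 1 lower with the block. Of 12 mural cell markers, 3 were called higher and 1 lower (6.13 to 6.29 and 6.40 to 6.74), against 1 and 0 with the block. In SPORTS replicate 3, the array with the lowest blood globins, the endothelial sum was the lowest of the 3 SPORTS arrays and the mural sum the highest. The part of any of these cells in the globin values was not tested.

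**Figure D4:**
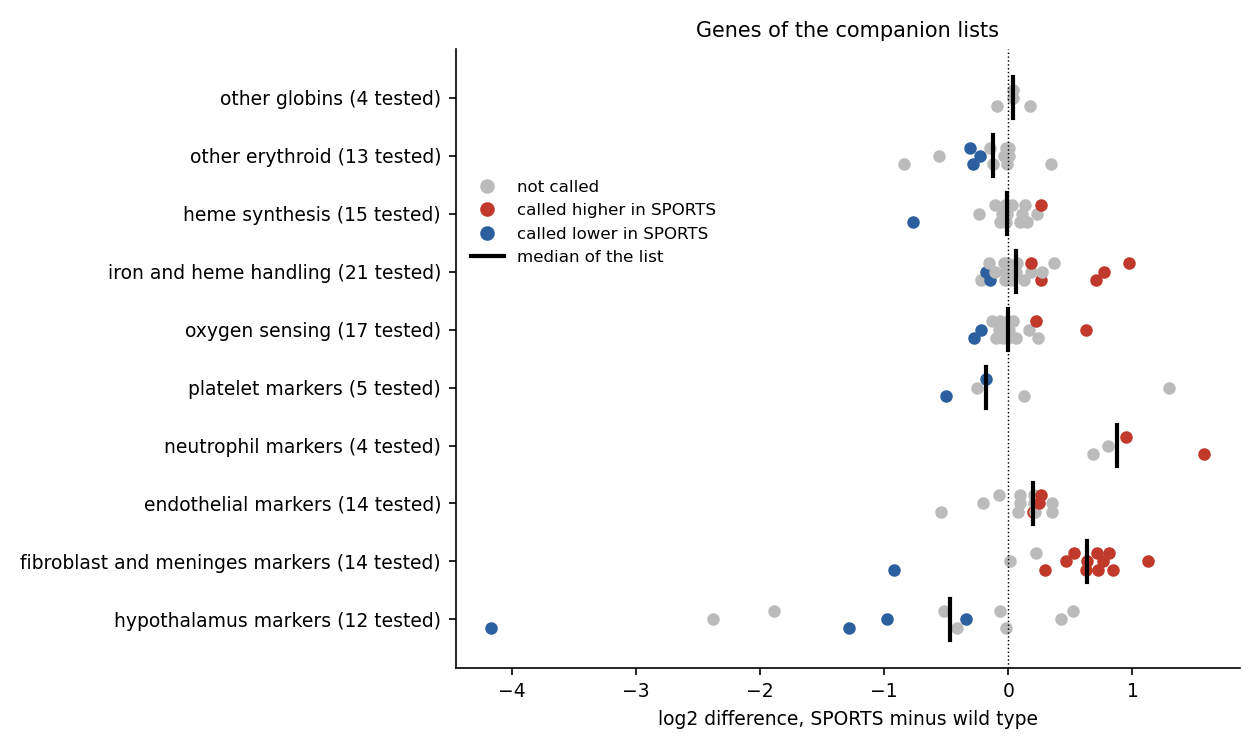
Log2 difference, SPORTS minus wild type, of every tested gene in 10 companion lists (points), coloured by its call in limma's test, with the median of each list as a black bar. The other globins, erythroid, heme synthesis and oxygen sensing lists centre within 0.12 of 0, while 11 of 14 fibroblast and meninges markers lie to the right as called higher.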

How the data were processed

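Brain RNA of 6 rats, 3 SPORTS and 3 wild type, was hybridised to 1 Cy3 array each. Per the file headers, the authors made the intensity values with Agilent Feature Extraction 10.10.1.1, which subtracts background and detrends within an array. The deposited table holds the same intensity values multiplied by 1 factor per array (1.38 to 1.47), chosen in a way that no source used here states, with column medians of 376 to 394 and 0 columns of no sample.

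Of 62976 spots, 58717 were no controls. Their log2 intensity was reduced by its 75th percentile on the array, 3075 outlier spot values were dropped and the spots of a probe averaged. The filter kept a probe if, in at least 1 group, over 0.5 of its spots exceeded background clearly on all arrays. Symbols came from the transcript name of a probe through RefSeq (GRCr8), for 13090 tested probes. Probes were fitted with limma 3.58.1 in R 4.3.3 (two-sided, Benjamini-Hochberg threshold 0.05), after a test on simulated data.

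The members and the 17 lists (260 entries, 185 tested) were chosen with earlier results of these data known. The rule for names took all members, up to 4 called genes of each globin, red cell, heme, iron and oxygen list (else up to 2 with the smallest p), up to 2 called genes of other lists, given mostly as counts, and the 5 genes nearest in pattern, of which 1 is not reported here. Klf1, Alas1, Hmox1, Sptb, Rhd, Epor, Pf4, Nos1 and genes near background were named after their values were seen. Alternatives were other normalisations, background corrections and filters, the deposited table, outlier spots, the variance model, the slide row, other ways to join probes and leaving out each array.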

Additional observations from a re-analysis of the deposited data

How the results depend on the processing

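The number of tested probes called higher and lower, 2283 and 2081, was 1234 and 1108 without the filter on dim probes, which tests more probes. With the slide row as a block it was 741 and 856, and in row 2 alone, where the single wild type array is assumed to vary like the others, 538 and 609. Without any 1 array the counts ran from 1297 to 1625 higher and from 1001 to 1558 lower. A shift by the array median gave 1696 higher and 2379 lower, so that 41.6% of the calls were higher against 52.3%, the cause of which was not tested. The 75th percentile over probes in place of spots, added after seeing the data, gave 47.1%. No scaling moved the median of all tested probes by more than 0.04. The median difference of the 4 blood globin genes lies between the 2 flat and the 2 shifted genes. It ran from 0.94 to 1.35, lowest without SPORTS replicate 1 and highest without SPORTS replicate 3. Signals under background limit Hba-a3. No paired analysis was possible because the titles of the 2 lines share 1 number only.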
